A study of Homo sapiens with 6 samples.

Results

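RB1, its relatives RBL1 and RBL2, and the inhibitors of cyclin-dependent kinases (CDKs) CDKN1B, CDKN1C, CDKN2A, CDKN2B, CDKN2C and CDKN2D were followed in Y79 cells that carried a hairpin RNA against MYCN. The 9 genes were chosen by gene symbol, and all 9 were found among the 17013 genes of the deposited table. Y79 is an established cell line from a human retinoblastoma, with amplified MYCN and mutated RB1, and grows in suspension. The control group (3 libraries) received a control shRNA and is labelled MYCN wild-type, and the other group (3 libraries) received an MYCN-targeting shRNA and is labelled MYCN knockdown. No time after transduction, number of hairpins or hairpin sequence is given in the sources used here. The replicates are described as independent, and all 6 libraries are labelled as 1 batch.

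Pocket proteins hold E2F transcription factors on the promoters of cell cycle genes and, with corepressors or the MuvB core, keep those genes off in cells that are not dividing. CDK4 and CDK6 with D cyclins, then CDK2 with E cyclins, phosphorylate pocket proteins and release E2F. INK4 inhibitors (CDKN2A to CDKN2D, encoding p16, p15, p18 and p19) bind CDK4 and CDK6, while CIP and KIP inhibitors (CDKN1B encoding p27, CDKN1C encoding p57, and CDKN1A encoding p21) act on cyclin-CDK complexes more widely. Loss of RB1 is the founding lesion of most retinoblastomas.

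Libraries held 15490263 to 16078416 estimated counts. MYCN itself was lower with its hairpin but still abundant, at 3016 ± 129 CPM (counts scaled to a common library size by TMM, SD, n = 3) in controls and 2297 ± 109.7 with the MYCN shRNA. Its log2 fold change with TMM scaling was -0.39 ± 0.043 (SE, edgeR, adjusted p = 8.0e-11). The value for MYCN with library size as the only scaling is not given here. Markers of several cell types moved with the groups. Of 9 photoreceptor lineage markers 7 rose and 2 fell, also with library size as the only scaling. Of all 12819 tested genes 38.0% were called higher and 37.9% lower (51.5% and 26.1% with library size scaling). The cone genes THRB (2.45), PDE6H (1.89), ARR3 (1.8) and RXRG (1.56) and the photoreceptor gene RCVRN (1.55) rose on the log2 scale, while the transcription factor genes OTX2 (-0.67) and NEUROD1 (-0.74) fell (edgeR). Their summed level, of which OTX2 and NEUROD1 made up most, was 1797 to 1902 CPM in controls and 1584 to 1635 CPM with the MYCN shRNA. Of 5 Mueller glia genes VIM rose (0.68), GLUL fell (-0.35) and 3 were not called or not tested, and the sums overlapped (1149.8 to 1195 and 1172 to 1205 CPM). The sum of 4 pigment epithelium genes was 3.61 to 3.8 CPM in controls and 11.2 to 13.2 CPM with the MYCN shRNA, where RPE65 rose from a mean of 0.244 to 4.72 CPM. That of 4 fibroblast and vascular genes was 1.05 to 1.32 and 2.68 to 3.69 CPM, most of it COL1A1 (log2 fold change 1.29). The blood and immune genes PTPRC (mean 0.0693 and 0.0801 CPM) and CD68 (0.94 and 0.765 CPM) were low, and their sums overlapped. No marker measured was at 0 in all 6 libraries. Their part in the results was not tested. In RNA from a whole culture, a change within every cell cannot be told apart from a change in the share of cells that express a gene.

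Start regions of 2 members are shown because they carry sequences that E2F or MYC proteins are known to bind. Each runs 5′ to 3′ on the strand of the gene, from 250 bases before to 50 bases after a RefSeq start site (GRCh38.p14), with matches to E2F or E-box sequences in capitals. For RBL1 the window is chr20:37095948-37096247 (minus strand), and for CDKN2C 2 windows at different start sites are given, chr1:50960495-50960794 and chr1:50969995-50970294 (plus strand).
RBL1: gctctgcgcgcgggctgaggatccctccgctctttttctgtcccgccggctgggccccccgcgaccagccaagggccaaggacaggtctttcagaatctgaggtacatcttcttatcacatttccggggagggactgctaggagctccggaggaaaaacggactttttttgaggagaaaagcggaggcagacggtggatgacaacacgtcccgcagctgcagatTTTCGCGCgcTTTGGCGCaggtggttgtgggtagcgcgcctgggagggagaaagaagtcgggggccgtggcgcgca
CDKN2C, outermost start: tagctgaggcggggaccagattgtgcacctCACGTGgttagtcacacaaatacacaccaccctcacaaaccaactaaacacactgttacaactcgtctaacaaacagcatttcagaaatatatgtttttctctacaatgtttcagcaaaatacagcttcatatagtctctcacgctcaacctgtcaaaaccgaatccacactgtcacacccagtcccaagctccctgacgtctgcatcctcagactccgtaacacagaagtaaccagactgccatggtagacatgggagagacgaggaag
CDKN2C, internal start: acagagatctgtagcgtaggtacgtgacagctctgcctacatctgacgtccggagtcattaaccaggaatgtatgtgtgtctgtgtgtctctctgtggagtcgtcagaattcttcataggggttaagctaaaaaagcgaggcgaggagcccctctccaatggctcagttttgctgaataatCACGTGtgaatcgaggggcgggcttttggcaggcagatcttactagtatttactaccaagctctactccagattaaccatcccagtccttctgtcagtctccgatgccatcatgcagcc

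RBL1 held 2 E2F sequences, TTTCGCGC and TTTGGCGC, whose first bases lie 26 and 16 bases before the start site. An E2F sequence (TTTCCCGC, TTTCGCGC, TTTGCCGC or TTTGGCGC, either strand) occurred in 3.31% of all 35116 windows of this length. CDKN2C held the E-box CACGTG, which MYC and MAX proteins bind, 220 bases before its outermost start and 69 bases before the internal one shown. Its remaining window, at another internal start, held no E-box and 6 GC boxes, so the E-box was in 2 of 3 CDKN2C windows. CACGTG occurred in 7.26% of all windows. RBL2 held TTTGAA, a sequence bound by MuvB complexes, 24 bases after its outermost start, as did 15.2% of windows somewhere. Windows of CDKN1B, CDKN2A, CDKN2B and CDKN2D held none of these 3 kinds of sequence. The GC box GGGCGG, bound by SP1, was in windows of CDKN1B, CDKN2A, CDKN2B, CDKN2C, CDKN2D and RBL2 and in 45% of all windows (either strand). Of the 9 members 8 had a window, and that of RB1 lies at an internal start 172699 bases from the start of the gene and held none either. A match is only a match of letters, and binding was not measured.

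RB1 transcript was abundant in this RB1-mutant line and was higher with the MYCN shRNA. It measured 92.8, 91.4 and 104 CPM in the control libraries and 132, 138 and 133 CPM with the MYCN shRNA. The lowest MYCN shRNA library stood above the highest control. The change was 0.48 ± 0.046 on the log2 scale (SE), or 1.4-fold (edgeR quasi-likelihood test, adjusted p = 1.5e-12). The estimates rest on 4285 RB1 counts in controls and 6683 with the MYCN shRNA, all whole numbers.

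Per kilobase of annotated exon, RB1 stood at 14.9 ± 1.07 CPM in controls and 20.8 ± 0.536 with the MYCN shRNA (SD, n = 3). In controls 75.0% of the 12518 tested genes with a known length lay below it, and 84.1% with the MYCN shRNA. The median tested gene had 6.14 and 6.25 CPM per kilobase. RB1 (chromosome 13, RefSeq span 48303751 to 48481890, plus strand) was thus the most abundant of the 3 pocket protein transcripts on this scale. The table gives 1 value per gene, so which exons the remaining transcript holds was not analysed here, nor was protein. LPAR6, which lies within RB1 on the opposite strand without sharing exons, held 2 counts over the control libraries and 18 over the others, far fewer than RB1. The GENCODE 29 model of RB1, used for its length, runs from 48303726 to 48599436 and also spans RCBTB2. That gene is likewise on the opposite strand, shares no exons with RB1, and held 18 and 117 counts.

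RBL1, which encodes p107 and is itself regulated by E2F, rose slightly. Its level was 25.5, 26.6 and 29.2 CPM in controls and 31.4, 33.3 and 30.6 CPM with the MYCN shRNA. The groups did not overlap, although the closest libraries were 29.2 and 30.6 CPM. The RBL1 counts were whole except in MYCN shRNA replicate 1 (528.03). The log2 fold change was 0.23 ± 0.066 (edgeR, adjusted p = 0.00187). RBL1 (chromosome 20, 36996349 to 37095997) was the pocket protein gene with the lowest level per kilobase, at 4.55 ± 0.32 CPM in controls.

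RBL2, which encodes p130, the pocket protein of resting cells, did not pass the test. It measured 55.7, 56.2 and 63.5 CPM in controls and 62.8, 64.7 and 60.5 CPM with the MYCN shRNA, so the groups overlapped through control replicate 3. The log2 fold change was 0.10 ± 0.054 (edgeR, adjusted p = 0.084). Without control replicate 3 it was 0.16 (adjusted p = 0.00595), with library size as the only scaling 0.28 (adjusted p = 1.6e-05), and with upper quartile scaling 0.14 (adjusted p = 0.0175). Control replicate 3 had the highest control level of all 3 pocket protein genes. RBL2 shares exon sequence with AKTIP on the opposite strand (511 counts in controls, 605 with the MYCN shRNA), and its own counts were not whole. Without a known strand setting, reads from the shared stretch cannot be told apart.

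**Figure D1:**
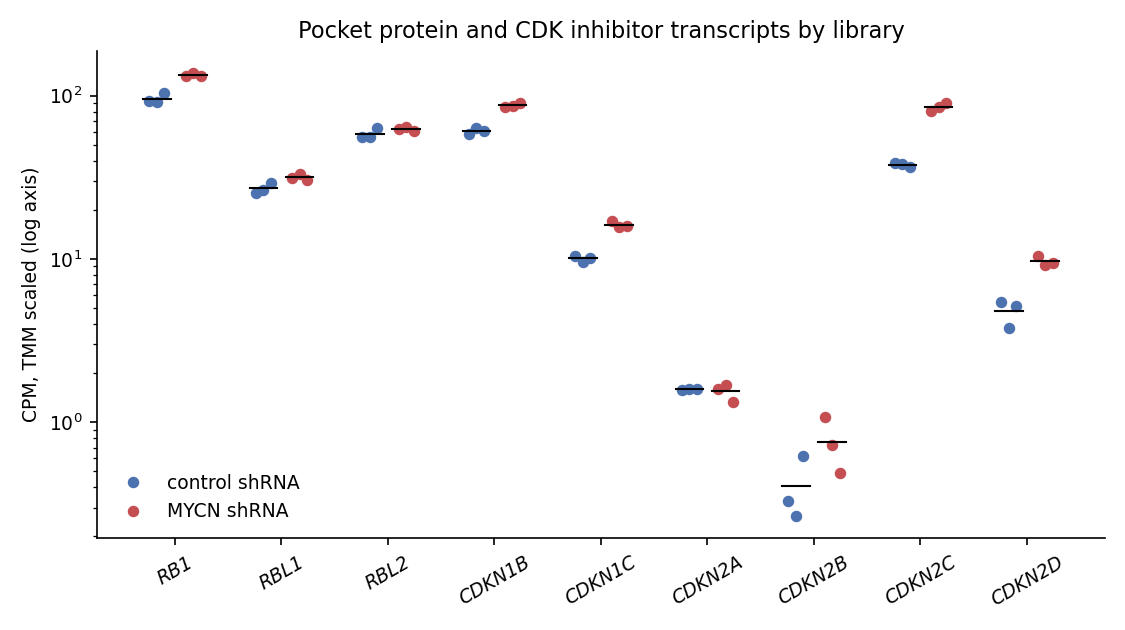
CPM of each member in each library (points, log axis) with the mean of 3 libraries as a line, control shRNA in blue and MYCN shRNA in red. For RB1, RBL1, CDKN1B, CDKN1C, CDKN2C and CDKN2D every MYCN shRNA library lies above every control library, while RBL2, CDKN2A and CDKN2B overlap.

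Ratios of counts within a library do not depend on scaling, and the RB1 ratios differed between the groups. The RB1 to RBL2 ratio was 1.67, 1.63 and 1.64 in controls and 2.10, 2.14 and 2.19 with the MYCN shRNA. For RB1 over RBL1 the ratio lay between 3.44 and 3.64 in controls and between 4.15 and 4.33 with the MYCN shRNA. RBL1 to RBL2 lay between 0.457 and 0.474 in controls and between 0.500 and 0.514 with the MYCN shRNA. The 3 pocket protein transcripts thus changed unequally, and in none of these ratios did the groups overlap. The RBL1 to RBL2 ratio follows from the RB1 ratios and adds no separate evidence. How often the groups separate in ratios of other gene pairs was not measured.

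Both KIP inhibitors rose. CDKN1B (p27) measured 58.0, 63.4 and 61.1 CPM in controls and 84.9, 86.7 and 90.3 CPM with the MYCN shRNA, without overlap. The CDKN1B counts were not whole in any library, and why was not tested. The log2 fold change of CDKN1B was 0.52 ± 0.049 (edgeR, adjusted p = 1.2e-12). CDKN1B (chromosome 12, 12717368 to 12722369, plus strand) was the member with the highest level per kilobase in both groups, 21.6 ± 0.951 and 31.1 ± 0.977 CPM. Its ratio to RB1 overlapped between groups, at 0.588 to 0.693 and 0.627 to 0.681.

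CDKN1C (p57), an imprinted gene of differentiating tissues, stood at 10.5, 9.6 and 10.2 CPM in controls and at 17.0, 15.6 and 15.9 CPM with the MYCN shRNA. Its log2 fold change was 0.68 ± 0.093 (edgeR, adjusted p = 1.7e-08). The CDKN1B to CDKN1C ratio overlapped between groups (5.52 to 6.60 and 4.99 to 5.67). Of the genes beside CDKN1C on chromosome 11, KCNQ1 was at 0 counts throughout, SLC22A18 had 30 and 40 counts and was not tested, and PHLDA2 had 27 and 37 counts (log2 fold change 0.29, adjusted p = 0.47). CDKN1A (p21), the third gene of the CIP and KIP family, rose by 1.2 on the log2 scale, from 303 ± 10.8 to 694 ± 40.7 CPM.

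Among the INK4 genes, CDKN2C and CDKN2D rose about 2.26-fold and 2.03-fold, while CDKN2A and CDKN2B were scarcely expressed. CDKN2C (p18; chromosome 1, 50960745 to 50974634, plus strand) measured 38.5, 38.1 and 36.5 CPM in controls and 80.9, 85.5 and 90.1 CPM with the MYCN shRNA. No control library came near the MYCN shRNA libraries. The log2 fold change was 1.18 ± 0.054 (edgeR, adjusted p = 8.0e-23), the highest of the 8 members tested. Per kilobase, CDKN2C went from 11.4 ± 0.319 to 25.8 ± 1.39 CPM and passed RB1 in the order of levels.

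CDKN2C also rose relative to the other abundant members. The CDKN2C to CDKN1B count ratio was 0.664, 0.602 and 0.598 in controls and 0.953, 0.986 and 0.998 with the MYCN shRNA. For CDKN2C over RB1 it lay between 0.351 and 0.417 in controls and between 0.613 and 0.680 with the MYCN shRNA. For these ratios, too, the share of other gene pairs that separate was not measured. FAF1, whose start lies close to the outermost CDKN2C start on the opposite strand, had a log2 fold change of 0.02 (edgeR, adjusted p = 0.645).

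CDKN2D (p19) was at 5.45, 3.8 and 5.13 CPM in controls and at 10.5, 9.23 and 9.46 CPM with the MYCN shRNA. The groups were separate, with a log2 fold change of 1.02 ± 0.129 (edgeR, adjusted p = 2.8e-09). It rests on fewer reads than CDKN2C, with 214 counts in controls and 485 with the MYCN shRNA. The CDKN2C to CDKN2D ratio overlapped (7.07 to 10 and 7.68 to 9.53), and control replicate 2 was the low one for CDKN2D.

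CDKN2A (p16 and, from another first exon, the p53 pathway protein ARF) stayed at a low level in both groups. It held 24, 24 and 23 counts in controls and 27, 28 and 22 with the MYCN shRNA, or 1.58, 1.60 and 1.59 against 1.61, 1.69 and 1.34 CPM. The log2 fold change was -0.04 ± 0.238 (edgeR, adjusted p = 0.888), and it was 0.14 with library size as the only scaling and 0.05 without MYCN shRNA replicate 3. The ratio of MYCN shRNA to control was 0.973 with a 95% exact interval of 0.695 to 1.36, which covers counting error only. Both products share a gene count and cannot be separated here, and CDKN2A shares exon sequence with the antisense gene CDKN2B-AS1, which was not analysed here. Only 7.9% of tested genes had a lower level per kilobase in controls, with the 4329 bases of all annotated exons as length. With the longest coding transcript (1283 bases) the control level was 1.24 in place of 0.367 CPM per kilobase. The share of genes below it depends on that choice.

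CDKN2B (p15) fell below the count filter and was not tested. It held 5, 4 and 9 counts in controls and 18, 12 and 8 with the MYCN shRNA, so the groups overlapped. The ratio of CPM was 1.89 with a 95% exact counting interval of 1.05 to 3.53. When all genes with a count were tested, its log2 fold change was 0.89 ± 0.443 (edgeR, adjusted p = 0.0696). It passed the filter when some libraries were left out, but only through MYCN shRNA libraries, since every control library held fewer than 10 counts. Adjusted p-values (edgeR) were then 0.0198 without MYCN shRNA replicate 3, the lowest of its group, and 0.0211 without control replicate 3. They were 0.146 without control replicate 1 and 0.181 without control replicate 2. Because the higher group alone admitted CDKN2B, these values give no support for a rise. MTAP and DMRTA1, which flank CDKN2A and CDKN2B on chromosome 9, had 0 counts in controls and 1 each with the MYCN shRNA.

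Across the members, 6 of the 8 tested were called higher and 0 lower at an adjusted p under 0.05, where 38.0% of all 12819 tested genes were called higher and 37.9% lower. Of the 2 that were not called, neither had an unadjusted p under 0.05, and DESeq2 and limma-voom also called 0 lower. In 6 of the 8 every MYCN shRNA library lay above every control library, against 38.6% of tested genes. Each tested member held at least 22 counts in every library, so none entered only through its higher group. Against a 2-fold minimum (edgeR glmTreat) CDKN2C alone was called, with 5.72% of tested genes called higher by that rule. The TMM factors of the control libraries (0.93 to 0.948) lay below those of the MYCN shRNA libraries (1.059 to 1.07). With library size as the only scaling the median log2 fold change of all tested genes moved from 0.00 to 0.19 and 51.5% were called higher. The fold changes of the members then were 0.67 for RB1, 0.41 for RBL1, 0.70 for CDKN1B, 0.86 for CDKN1C, 1.36 for CDKN2C and 1.2 for CDKN2D. Every scaling used here is relative to the other sequenced RNA, and none measures transcript per cell.

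**Figure D2:**
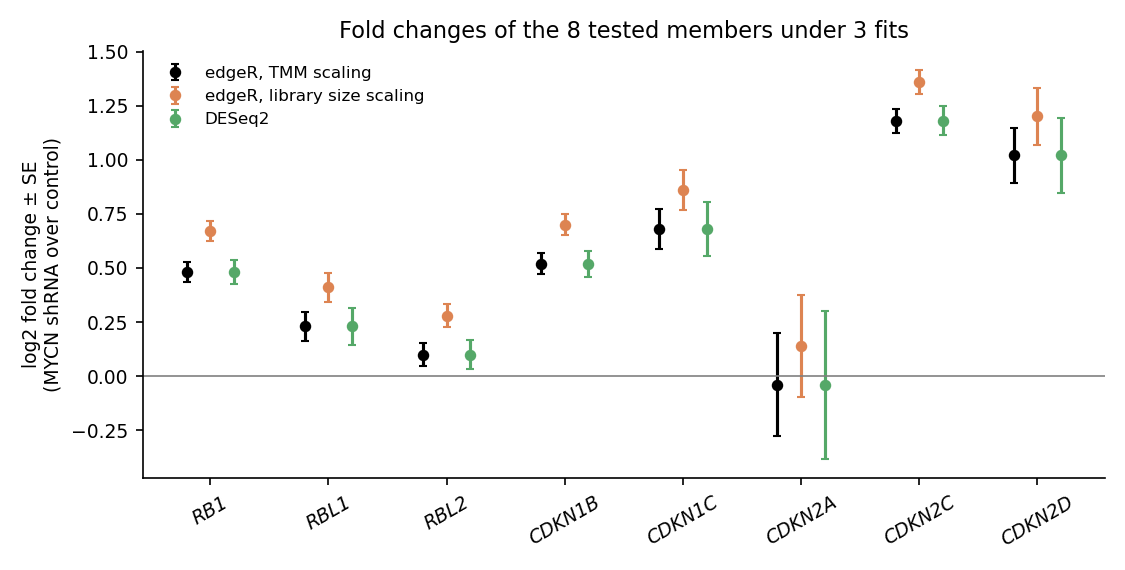
Log2 fold change of MYCN shRNA over control with its SE for the 8 tested members, by edgeR with TMM scaling, edgeR with library size as the only scaling, and DESeq2. CDKN2C and CDKN2D lie highest in all 3 fits, RBL2 lies between 0.10 and 0.28, and CDKN2A changes sign.

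In controls the order of levels per kilobase was CDKN1B, RB1, CDKN2C, RBL2, RBL1, CDKN1C, CDKN2D, CDKN2A and CDKN2B, and no neighbours overlapped over the 3 libraries. With the MYCN shRNA it was CDKN1B, CDKN2C, RB1, RBL2, CDKN1C, CDKN2D, RBL1, CDKN2A and CDKN2B. There CDKN1C (6.52 ± 0.306 CPM per kilobase) and CDKN2D (6.48 ± 0.463) overlapped, and the other neighbours did not. CDKN2A (0.367 and 0.357) and CDKN2B (0.1 and 0.188) closed the order in both groups. With the longest coding transcript as length, CDKN2A stood at 1.24 CPM per kilobase in controls, and CDKN1C (5.22) lay above RBL1 (4.77).

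**Figure D3:**
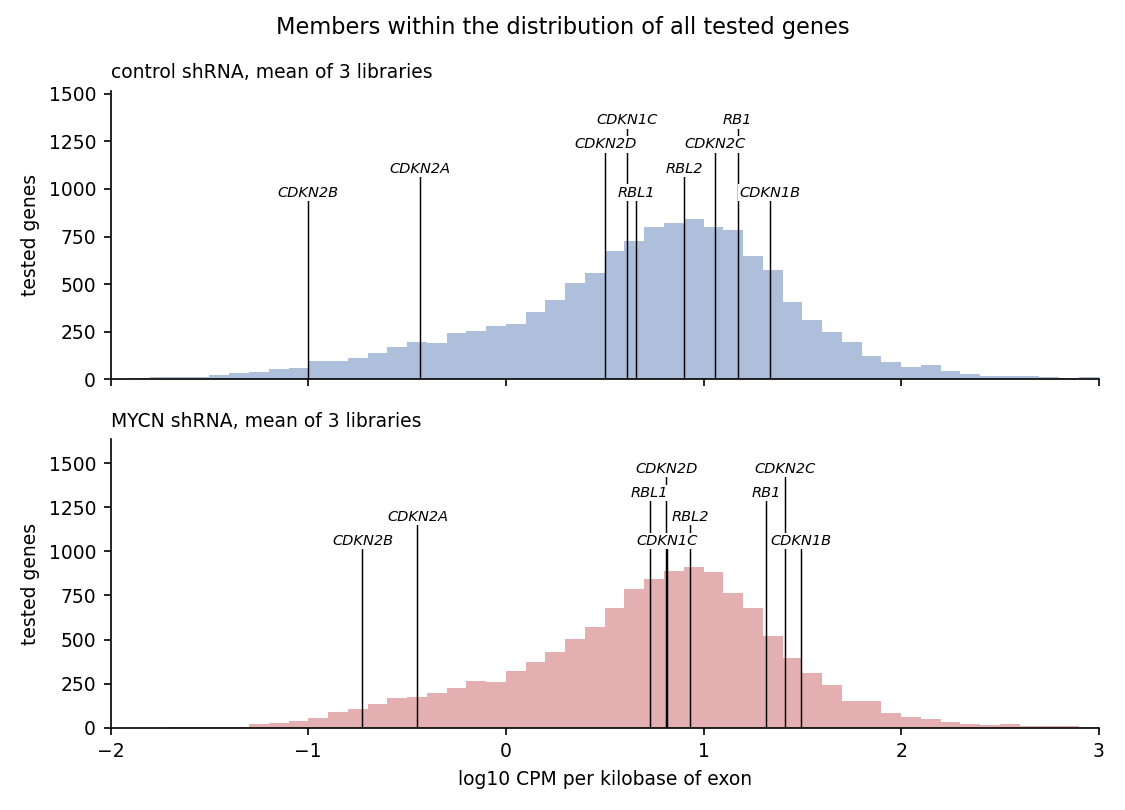
Distribution of CPM per kilobase of exon (log10) over tested genes in control (top) and MYCN shRNA (bottom) libraries, with the members marked at their means of 3 libraries. RB1 lies above 75.0% and 84.1% of tested genes, while CDKN2A and CDKN2B lie in the low tail.

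**Figure D4:**
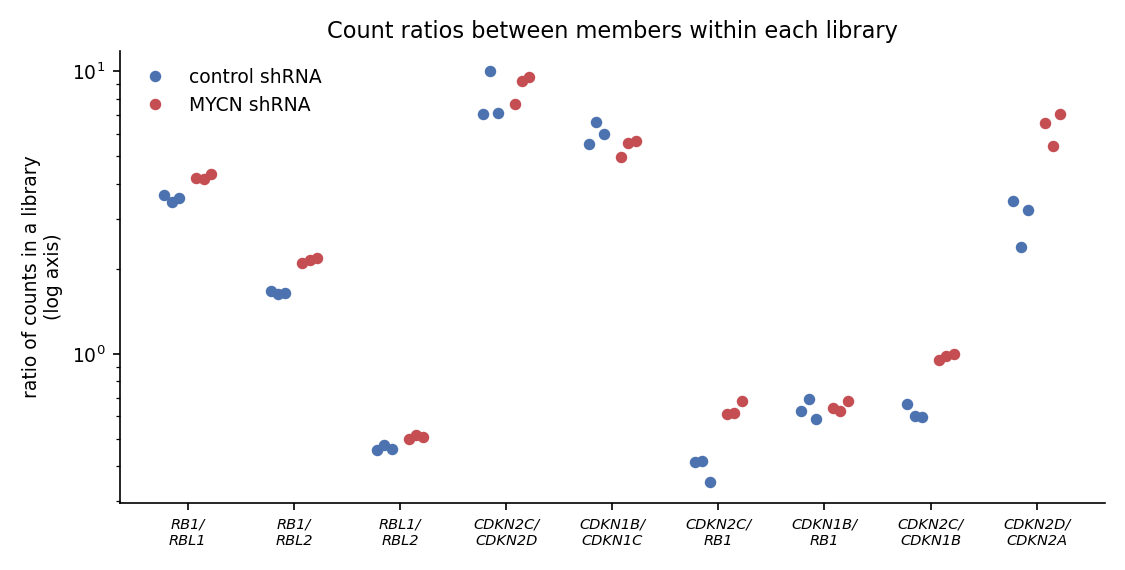
Count ratios between pairs of members within each library (points, log axis), control shRNA in blue and MYCN shRNA in red. The groups separate for RB1 over RBL2 and for CDKN2C over RB1 and over CDKN1B, and they overlap for CDKN1B over RB1 and CDKN2C over CDKN2D.

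Other genes of the pathway are given by list, each count to be read beside the 38.0% called higher and 37.9% called lower of all 12819 tested genes (51.5% and 26.1% with library size as the only scaling). In the E2F and DP list 7 of 10 rose and 2 fell (median log2 fold change 0.18, against 0.00 over all genes tested). The atypical repressors E2F7 (62.5 ± 3.71 to 219 ± 3.46 CPM) and E2F8 (0.96) rose, and E2F2 (-1.09) and E2F4 (-0.32), the usual partner of RBL1 and RBL2, fell. Of 13 G1 cyclins and kinases 5 rose and 6 fell (median -0.11), close to the shares of all tested genes. The cyclin E genes CCNE1 (1.39) and CCNE2 (2.24) rose, while the D cyclin genes CCND1 (51.0 ± 1.58 to 10.7 ± 1.62 CPM) and CCND2 (-0.79) fell.

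Of 8 genes in the MuvB and DREAM list 3 rose and 4 fell (median -0.07), also close to the shares of all tested genes. LIN54 (0.42) and the DREAM kinase gene DYRK1A (0.35) rose, and the histone chaperone gene RBBP4 (-0.97) and FOXM1 (-0.35) fell. In the corepressor list 8 of 12 genes rose and 3 fell (median 0.22). RBBP8 (0.86) and SIN3A (0.62) rose, and KDM5B (-0.42) and SMARCA4 (-0.27) fell, although SMARCA4 did not pass with library size as the only scaling (adjusted p = 0.0527). That scaling left 1 of these corepressor genes called lower.

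Among 10 genes for the turnover of p27 and p57 4 rose and 3 fell (median 0.08), or 7 and 1 with library size as the only scaling. CKS1B, the cofactor with which the SKP2 ubiquitin ligase recognises p27, fell by 1.51 from 115 ± 7.18 to 40.6 ± 2.94 CPM, while SKP2 rose by 0.19. UBAC1 (0.69), a subunit of another p27 ligase, and CUL1 (0.60) rose, and RBX1 (-0.27) fell, without passing under library size scaling (adjusted p = 0.206). Of 18 tested regulators of CDK inhibitor transcription 10 rose and 6 fell (median 0.21). FOXO1 (0.81), a known activator of CDKN1B, and the polycomb methyltransferase gene EZH2 (0.94) rose, while ETS2 (-1.10) and SMAD3 (-0.95) fell.

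Genes that pocket proteins are known to restrain were taken as a pair of lists. Of 23 replication genes regulated by E2F 15 fell and 8 rose (median -0.30), with MCM10 at -0.92 and MCM4 at -0.43 against RRM2 at 0.77 and TYMS at 0.59. Of 18 late cell cycle genes regulated by DREAM 7 fell, 5 rose and 6 were not called (median -0.04), again near the shares of all tested genes. AURKB (-1.10) and CCNB2 (-0.51) fell, and TOP2A (0.31) and KIF11 (0.23) rose. With library size as the only scaling 11 of these late genes were called higher and 4 lower.

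**Figure D5:**
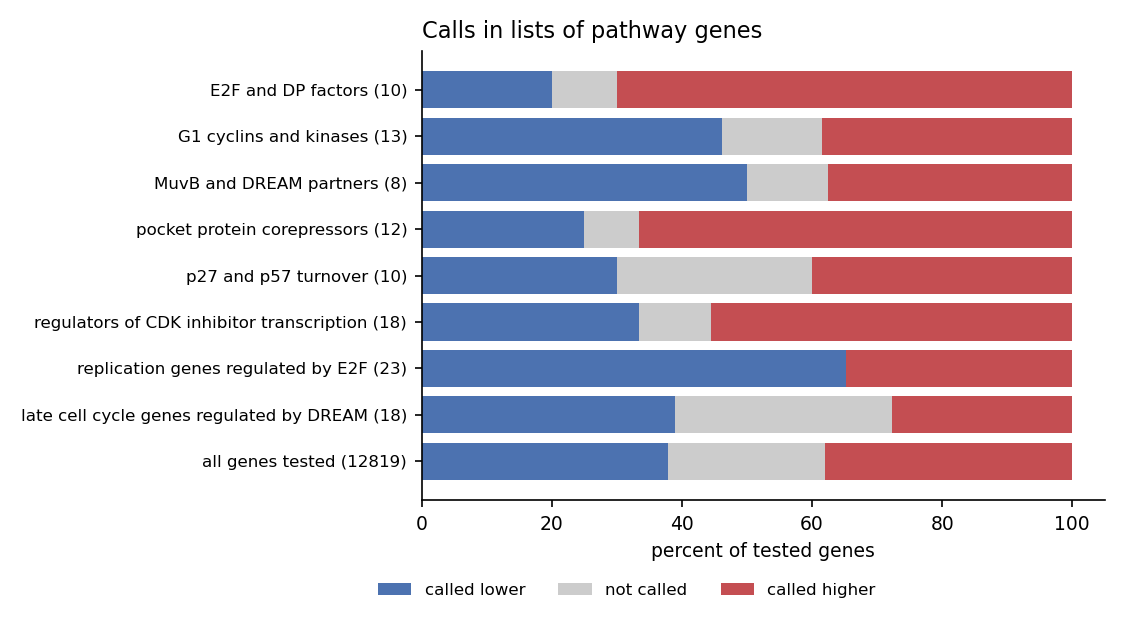
Percent of tested genes called lower (blue), not called (grey) and called higher (red) in each pathway list, with the number tested in brackets and all 12819 tested genes as the last bar. The replication list has 15 of 23 genes called lower, and E2F and DP factors have 7 of 10 called higher.

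Neighbours of the members in the genome gave a local comparison. At RB1 on chromosome 13, ITM2B rose by 0.64, whereas MED4 had a log2 fold change of 0.04 (edgeR, adjusted p = 0.487). RCBTB2 went from 18 counts over the controls to 117 with the MYCN shRNA (log2 fold change 2.52). It passed the count filter only through its MYCN shRNA libraries, so its call gives no support for a rise. Beside CDKN1B on chromosome 12, APOLD1 rose by 2.78 from 2.27 ± 0.317 to 15.6 ± 0.883 CPM, while GPR19 lay at the threshold (0.49, adjusted p = 0.049) and was not called by DESeq2 (adjusted p = 0.168), with a replicate block (adjusted p = 0.0617) or in 5 of the 6 fits that left out 1 library. AKTIP at RBL2 (0.09, adjusted p = 0.417) and SAMHD1 near RBL1 (0.01, adjusted p = 0.836) did not pass. With library size as the only scaling MED4 (0.22), AKTIP (0.27), SAMHD1 (0.20) and FAF1 (0.20) were called higher.

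Over the 6 libraries, the genes whose level on a log2(CPM + 1) scale followed a member most closely were PCDHA3 (Pearson r = 0.9991) and ADD3 (0.9990) for RB1, and CNTNAP3 (0.9997) and REV3L (0.9996) for CDKN2C. For CDKN1B they were NOMO3 (0.9994) and PIGZ (0.9988), for CDKN1C HERC2 (0.9997) and UCK1 (0.9996), and for CDKN2D ZFP1 (0.9988) and RPGRIP1 (0.9976). For RBL1 they were GPR89A (0.9953) and TBC1D1 (0.9936), for RBL2 SFPQ (0.9841) and TEFM (0.9818), and for CDKN2A SLC29A1 (0.9505) and MAN2B1 (0.9459). For the members called higher, these describe 6 points that share 1 group difference. Of the 10748 genes compared, 22.8% had r above 0.95 with CDKN2C, 21.0% with CDKN1C, 20.0% with CDKN1B, 16.9% with RB1 and 11.3% with CDKN2D. For RBL1, also called higher, the share was only 0.958%, so its correlations may describe differences between replicates as well. RBL2 and CDKN2A were not called, and the shares for them were 0.112% and 0.0093%. Their closest genes had log2 fold changes between -0.05 and 0.13, so these correlations mostly describe differences between replicates.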

How the data were processed

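Poly(A)-selected RNA was sequenced from both fragment ends in 6 libraries, per the labels' protocols. The authors deposited estimated counts per gene symbol, not scaled between libraries. The submitters' processing notes name GRCh38. No aligner, counting software, strand setting or annotation is named in the sources used here. Of 17035 rows, 22 without values were left out.

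Estimated counts were rounded. Genes passing filterByExpr (minimum count 10; 12819 genes) were tested by edgeR 4.0.16 (R 4.3.3; quasi-likelihood, robust dispersions, TMM scaling) with Benjamini-Hochberg adjustment over all of them, at 0.05. SEs were derived from F. CPM values use the same TMM factors. Lengths are unions of GENCODE 29 exons, start regions come from RefSeq (GRCh38.p14), and Python 3.11.15 was used. Replicates differed by more than counting error (chi-square per degree of freedom 1.73 to 4.23). Members, gene lists and markers were chosen with earlier results of these data known. Named genes are the members, their neighbours in the genome, the 2 genes of each list with the smallest p in each direction, and the 2 genes most correlated with each member among those with at least 5 CPM. SKP2, MYCN and the cell type markers are named besides. Count ratios and promoter matches were chosen after the data were seen. On data simulated for this comparison (12720 genes, 200 of them altered) the recovery was 64.2% at a fold of 1.2, 92.5% at 1.5 and 92.4% at 2. The real comparison called far more genes (4865 higher and 4857 lower), so this recovery may not carry over to it. Alternatives were other scalings and filters, DESeq2 1.42.0, limma-voom (limma 3.58.1), a 2-fold minimum, leaving out each library, a replicate block, and another gene length.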

Additional observations from a re-analysis of the deposited data

How the results depend on the processing

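The 6 members called higher kept that call under the 3 other scalings (RLE, upper quartile, library size), both other filters, DESeq2, limma-voom, the replicate block and each of the 6 libraries left out. With a 2-fold minimum 1 member (CDKN2C), 733 genes higher and 397 lower were called, because that rule asks for more than a difference from 0, and RB1 (0.48), RBL1 (0.23), CDKN1B (0.52), CDKN1C (0.68) and CDKN2D (1.02) were not. RBL2 became called with upper quartile scaling (0.14), library size scaling (0.28) and without control replicate 3 (0.16), and ranged from 0.06 to 0.16 over libraries left out. CDKN2A changed sign with library size scaling (0.14) and ranged from -0.11 to 0.05 over libraries left out, never called. The cause was not tested. With library size scaling, calls were 1 lower for corepressors, 7 higher and 1 lower for p27 and p57 turnover, and 11 higher and 4 lower for late cell cycle genes. With the longest coding transcript as length, control levels in CPM per kilobase were 20.0 for RB1, 11.9 for RBL2, 22.9 for CDKN1B, 5.22 for CDKN1C, 1.24 for CDKN2A and 13 for CDKN2C, since that length is shorter. Libraries that share a replicate number had deviations correlated at 0.14, 0.114 and 0.082, above those with different numbers (-0.115 to 0.003). The labels state no pairing, so the main fit had no block. Whether the replicate numbers mark shared preparations was not tested. The replicate block gave 6 members called higher and 4967 and 4939 genes called higher and lower, against 4865 and 4857, and log2 fold changes of 0.48 for RB1 and 1.18 for CDKN2C. Depth limits CDKN2A and CDKN2B, with 71 and 18 counts over the control libraries.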
